A study of Mus musculus with 2 samples.

Results

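The MYC network is a set of transcription factors that pair through a basic helix-loop-helix leucine zipper, and its transcripts were followed here in erythroid progenitors without the erythropoietin receptor. The 10 genes described are Myc, Mycn, Mycl, Max, Mxd1, Mxd3, Mxd4, Mxi1, Mnt and Mlx. They were taken by symbol from the probe sets of an Affymetrix mouse array that are annotated to exactly 1 gene, out of 17874 genes measured in this way. All 10 were on the array, each with 1 probe set, so no average over probe sets entered their values.

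Expression was measured on 2 arrays of colony-forming unit erythroid (CFU-E) cells, progenitors that normally depend on erythropoietin, from fetal livers of EpoR-/- BALB/c embryos at gestational day 13.5. Pools of 40 to 50 livers were freed of red cells and depleted with antibodies against surface markers of granulocytes, monocytes, lymphocytes, platelet precursors and maturing red cells. Both samples spent 1 h in Panserin 401 without growth factors, and were then lysed at once (0 h, 1 array) or after 3 h in Panserin 601 (3 h, 1 array). The treatment labels read control for 0 h and supplemental growth factors for 3 h, while the protocol describes the 3 h culture as free of added factors, so the samples are named by time. Both carry the same deletion, labelled Epo KO and described as a loss of the receptor in the protocol, and the strain label stands only on the 0 h sample. No wild-type array was analysed here, so every value below is a comparison of time within this genotype. With 1 array per time there is no replicate error, no test and no p-value for any difference, and all statements describe these 2 samples.

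MYC proteins activate transcription as dimers with MAX, which bind the E-box sequence CACGTG. MXD1, MXD3, MXD4, MXI1 and MNT compete for MAX and for the same sequence, and recruit the SIN3 histone deacetylase complex, so they oppose MYC. MLX is a MAX-like partner of MondoA (gene Mlxip) and ChREBP (gene Mlxipl), which sense glucose-derived metabolites, and it also pairs with some MXD proteins and MNT. In erythroid cells a fall of MYC accompanies terminal maturation, and forced MYC expression blocks it.

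Several of these genes carry the network's own binding sequence next to their start sites. CACGTG, which reads the same on both strands, was searched in windows from 250 bases before to 50 bases after each RefSeq start (GRCm38.p6). Of 9 members with such a window, 4 held it, against 924 of 7610 genes at or above the signal floor defined below (12.1%) and 7.15% of all 32851 windows. The 4 were the partners Max and Mlx and the antagonists Mxd4 and Mnt. They are shown because they are the members that hold the sequence which MYC and its antagonists recognise, here in capitals.
Max, chr12:76962246-76962273, minus strand: accccggcgcggtgagcccggtCACGTG
Mlx, chr11:101087228-101087277, plus strand: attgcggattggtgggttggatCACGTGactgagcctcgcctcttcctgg
Mxd4, chr5:34187902-34187951, minus strand: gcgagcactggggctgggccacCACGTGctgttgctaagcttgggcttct
Mnt, chr11:74830779-74830828, plus strand: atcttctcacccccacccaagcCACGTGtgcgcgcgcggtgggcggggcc
The motif began 3 bases before the start of Max, 40 before that of Mlx, 123 before that of Mnt and 219 before that of Mxd4. The windows of Mycn, Mycl, Mxd1, Mxd3 and Mxi1 did not hold these 6 letters. A match describes the sequence and is not evidence of binding in these cells.

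Values are log2 expression as deposited, and differences are 3 h minus 0 h. A gene counted as at or above the floor where the higher of its values reached 5.70, the median of all gene values, which left 9284 genes. Among these, 11.7% differed by at least 1.5-fold (0.58 on the log2 scale), 6.94% being higher and 4.80% lower at 3 h, and 2.88% differed by at least 2-fold. Their median difference was 0.0094, with quartiles of -0.20 and 0.23. Of 22 erythroid markers, which check the labelled cell type, 21 reached the floor, all but Alas2 (4.49 and 4.72). Among the 21 was Epor, the gene of the receptor these cells are described to lack, at 7.08 at 0 h and 6.89 at 3 h. What its probe set reads in these cells was not tested. The floor was also reached by 18 of 19 hepatocyte, 9 of 17 granulocyte and 5 of 17 macrophage and monocyte markers. The hepatocyte genes Afp (14.60) and Alb (14.15) lay near the highest value at 0 h, 14.73. The part of CFU-E cells in the values below was not tested. Of 35 genes of other organs expected to be silent, 8 reached the floor too, so reaching it does not show expression. Among them Myod1 went from 4.99 to 6.06.

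The MYC-family activators at or above the floor, Myc and Mycn, were both higher at 3 h. Myc, the broadly used family member of dividing cells, was at 9.41 at 0 h and 9.68 at 3 h, a difference of 0.27 or 1.21-fold. A difference of at least this size, in either direction, was found for 40.4% of genes at or above the floor. Mycn, the family member best known from embryonic and neural progenitors, was at 7.69 and 8.29, a difference of 0.60 or 1.52-fold. This was the largest difference among the 10 members. A difference at least as large, in either direction, was found for 10.9% of genes at or above the floor, and 6.57% were higher by as much. Mycl, the third MYC gene, was at 3.46 and 3.51, below the floor on both arrays. No difference is read from it, and a value below the floor does not show that the gene is off.

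The partner genes Max and Mlx differed less than most genes. Max, which every MYC dimer needs, was at 8.005 and 8.17, a difference of 0.17 or 1.12-fold. Mlx was at 7.66 and 7.82, a difference of 0.16 or 1.12-fold. Differences at least as large were found for 58.7% of genes above the floor in the case of Max and for 60.8% in that of Mlx.

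The antagonists went both ways. Mxd4, which is linked to exit from the cell cycle, was at 7.65 at 0 h and 8.24 at 3 h, higher by 0.59 or 1.51-fold. Mxi1, a repressor induced in several differentiating tissues, was at 8.48 and 7.90, lower by 1.50-fold (-0.58). Among genes above the floor, 6.78% were higher by at least as much as Mxd4 and 4.91% lower by at least as much as Mxi1. In either direction, 11.3% differed by at least as much as Mxd4 and 11.9% by at least as much as Mxi1. The differences of Mxd4 and Mxi1 were close in size and opposite in sign.

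Mnt, the antagonist present in both resting and dividing cells, was at 8.83 and 8.50, a difference of -0.33 or 1.26-fold lower. Mxd3, the MXD gene linked to S phase, was at 6.12 and 5.93, a difference of -0.20 near the floor. Mxd1, linked to differentiation of myeloid and other cells, was at 6.92 and 7.11, a difference of 0.19. Granulocyte markers moved in the same direction as Mxd1. The 9 that reached the floor, 6 of them already at 0 h, were higher at 3 h, against 51.5% of all genes above the floor. The log2 of the summed level of the 17 markers measured went from 12.68 to 13.62. The other 8, among them the receptor genes Csf3r and Cxcr2, were below the floor on both arrays. The part of such cells in the Mxd1 value was not tested. In bulk RNA, more cells of a type and more RNA per cell cannot be told apart.

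**Figure D1:**
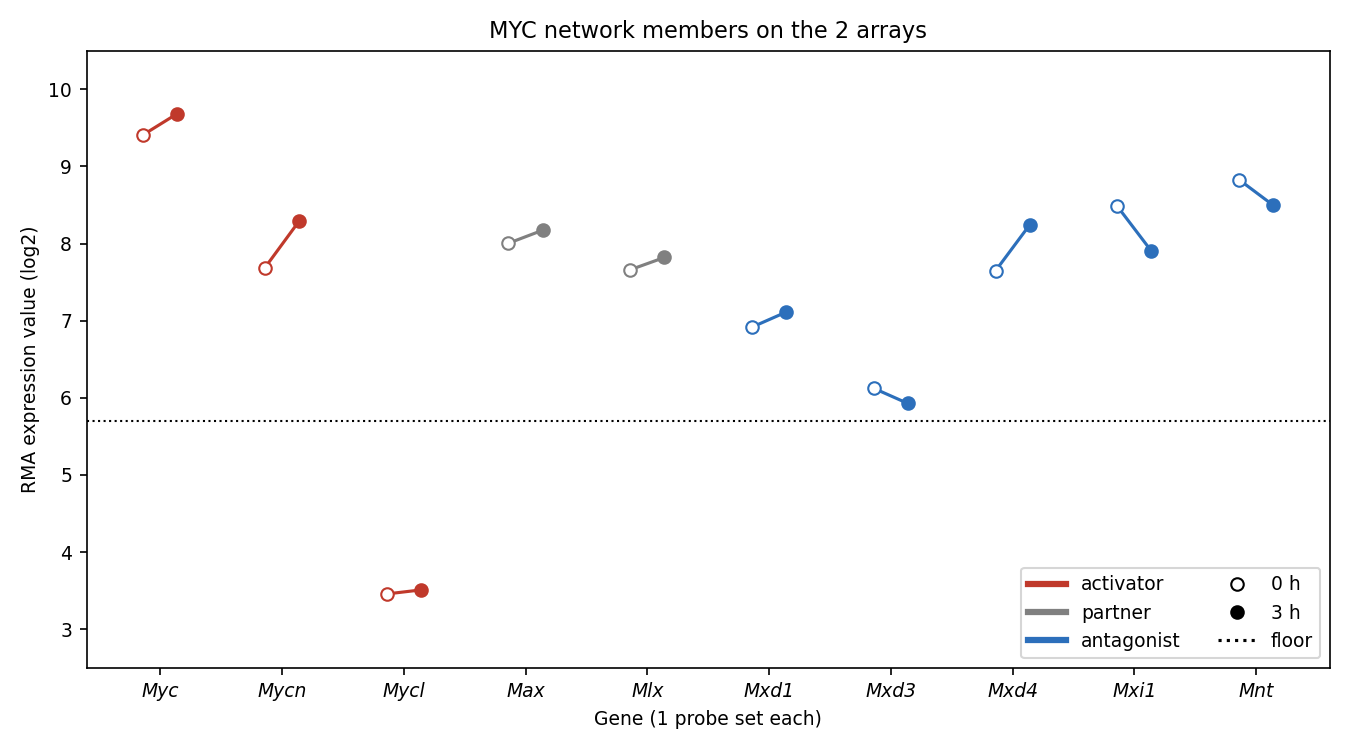
Log2 expression of each member at 0 h (open circles) and 3 h (filled circles), 1 array each, with activators in red, partners in grey and antagonists in blue; the dotted line is the floor of 5.70. Mycn and Mxd4 climb by similar steps, Mxi1 drops by a step of the same size, and Mycl lies below the floor. Levels of different probe sets cannot be compared with each other.

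Of the 9 members at or above the floor, 6 were higher at 3 h and 3 lower, and 51.5% of genes above the floor were higher. A difference of 1.5-fold or more was seen in 2 of these 9, both higher, against 11.7% of genes above the floor in either direction, and 0 members reached 2-fold. The bound fell between close values: Mycn (1.52-fold) and Mxd4 (1.51-fold) lay just inside it and Mxi1 (1.50-fold, -0.581 against a bound of 0.585) just outside. After quantile normalization of both arrays against each other, Mxi1 (-0.60) lay inside and Mxd4 (0.58) outside, as they did after removal of an intensity trend (-0.59 and 0.58), so the count stayed at 2 with a different antagonist in it. In so short a list, 1 gene more or less moves the share widely, and this count does not set the members apart from the 11.7%.

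As a class, the 2 activators above the floor had a median difference of 0.44 and the 5 antagonists one of -0.20, which lay 0.63 apart. With Mycl, below the floor, counted as well, the activator median was 0.27 and the gap 0.47. The antagonist median was the value of Mxd3, which lay near the floor, and with a floor of 7.00, which leaves Mxd3 out, it was -0.07 and the gap 0.51. The antagonists ranged from -0.58 to 0.59, so Myc lay inside their range and Mycn just above it. In 9 of the 10 pairs of 1 activator and 1 antagonist above the floor the activator had the greater difference, and the exception was Mxd4 against Myc. The lead was only 0.008 for Mycn over Mxd4 and 0.08 for Myc over Mxd1. With Mycl counted as well, the activator had the greater difference in 12 of 15 pairs. The pairs share genes and are not independent.

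**Figure D2:**
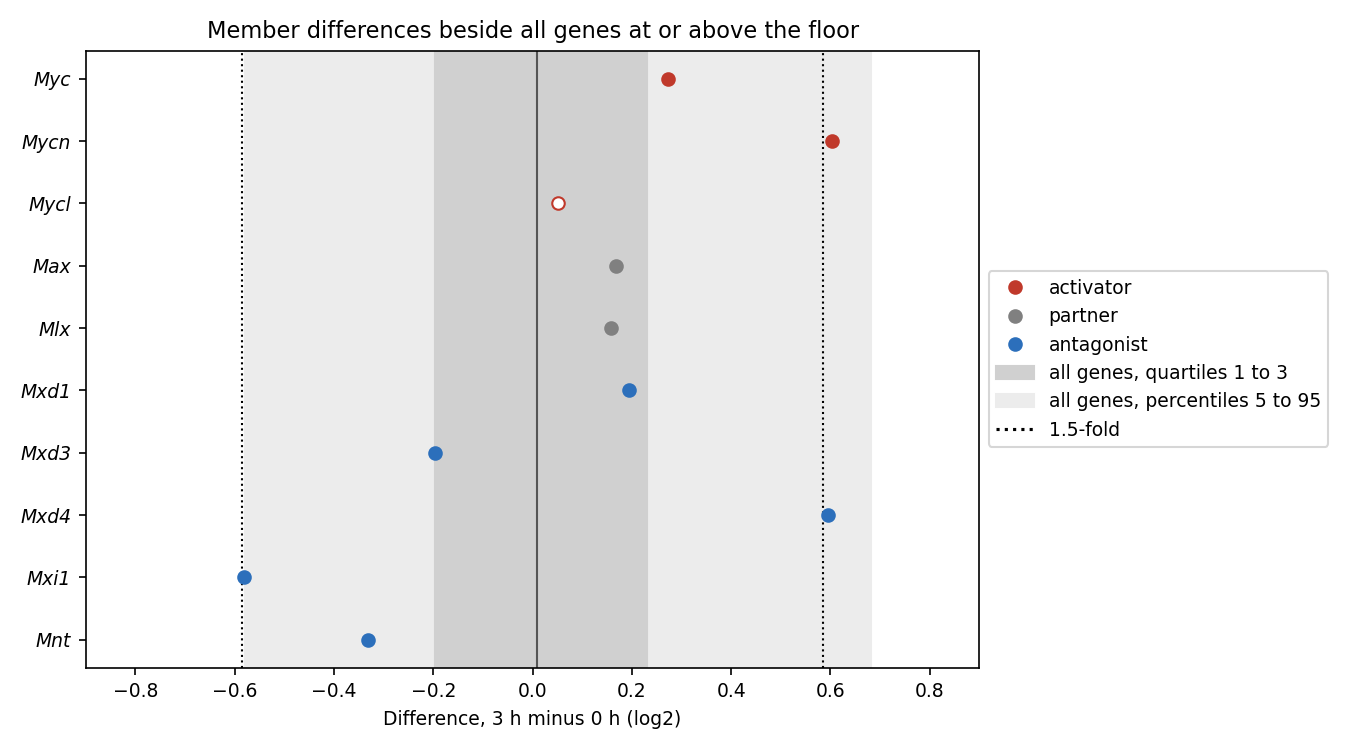
Differences of the 10 members (3 h minus 0 h, log2), coloured by class, on the quartiles of all 9284 genes at or above the floor (dark band, -0.20 to 0.23) and their 5th to 95th percentiles (light band, -0.58 to 0.68). Dotted lines mark 1.5-fold and the open circle marks Mycl, which was below the floor. Mxi1 lies at the lower edge of the light band, and Mycn and Mxd4 lie inside its upper edge.

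Other dimerisation partners of the network were also measured. Mlxip, encoding MondoA, was at 7.64 and 7.26, a difference of -0.38 or 1.30-fold lower. Mga, encoding a large MAX-binding repressor, was at 5.21 and 4.96, and Mlxipl, encoding ChREBP, at 4.14 and 4.20. Both were below the floor on both arrays.

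Among genes known to be induced by MYC, most in the growth and metabolic lists were lower at 3 h, whereas Myc and Mycn were higher. The cell cycle list showed no common direction. In a list of nucleolar, ribosome assembly and translation genes, 33 of the 36 above the floor were lower at 3 h and 3 higher, with a median of -0.31, whereas 48.5% of all genes above the floor were lower. Past 1.5-fold, 5 were lower and 0 higher, against 4.80% of all genes that were lower by that much. Nolc1, a chaperone of small nucleolar ribonucleoproteins, went from 8.77 to 7.87 (-0.91), and Wdr12, a large ribosomal subunit assembly factor, from 5.97 to 5.10 (-0.87), ending below the floor. Ncl, which encodes nucleolin, went from 9.61 to 8.99 (-0.61). Rrp1b (-0.65) and Dkc1 (-0.64), the pseudouridine synthase gene, completed the genes past 1.5-fold.

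In a list of MYC-induced metabolic genes, 27 of 32 were lower and 5 higher, with a median of -0.20. Past 1.5-fold, 6 were lower and 1 higher. Of all genes above the floor, 48.5% were lower, 4.80% at least 1.5-fold lower and 6.94% at least 1.5-fold higher. Srm, Shmt1, Mthfd1 and Tfrc rest on probe sets whose names carry a letter suffix. Without such probe sets, the counts past 1.5-fold were 3 lower and 0 higher, and the median was -0.22. Srm, the spermidine synthase gene, went from 11.63 to 10.63 (-0.997), whereas Odc1, the preceding enzyme of polyamine synthesis and a textbook MYC target, stayed at 9.52 and 9.47 (-0.05). The folate enzymes Mthfd1 (11.31 to 10.42) and Shmt1 (8.90 to 8.02) and the folate carrier Slc19a1 (9.07 to 8.27) were 1.86-fold, 1.84-fold and 1.74-fold lower. Cad, which starts pyrimidine synthesis, went from 6.74 to 6.16 (-0.58), and Ldha, the lactate dehydrogenase gene, from 13.37 to 13.07 (-0.30). The gene higher by over 1.5-fold was Tfrc, the transferrin receptor gene (0.61), which is also an erythroid marker.

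The MYC-induced cell cycle genes showed no common direction: 8 were higher and 8 lower, against 51.5% and 48.5% of all genes above the floor. Their median of 0.0014 turned to -0.23 with probe sets of possible multiple matches left out. The lower genes past 1.5-fold acted in G1, namely Ccnd1, encoding cyclin D1 (11.16 to 10.36), E2f2 (7.49 to 6.81) and E2f3 (8.43 to 7.77). Cdk4, the kinase partner of cyclin D1, went from 11.17 to 10.87 (-0.30). The mitotic kinase gene Plk1 was higher, from 9.10 to 9.75. Ccnd2, at 3.42 and 3.37, was below the floor.

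Sorted by role, a grouping made after the values were seen, all 7 genes put in a nucleolar and small nucleolar ribonucleoprotein group were lower (median -0.47). So were all 4 genes of RNA polymerase I transcription (-0.41). The 3 genes of the growth list that were higher, Utp20 (0.13), Pes1 (0.013) and Imp4 (0.009), were put in neither group. As the groups were made with the values known, the absence of higher genes in them is not a separate result. Of 2 genes of a large ribosomal subunit assembly complex above the floor, 1 was higher and 1 lower. Of all genes above the floor, 48.5% were lower. Of 6 folate genes 5 were lower (-0.61), and of 10 purine and pyrimidine genes 9 (-0.24). All 5 mitochondrial protein genes (-0.22) and all 4 genes of glucose use (-0.22) were lower too. The MCM helicase genes, which act in DNA replication, were higher in 3 of 3 (0.18), and of 3 amino acid carriers 2 were higher (0.06).

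**Figure D3:**
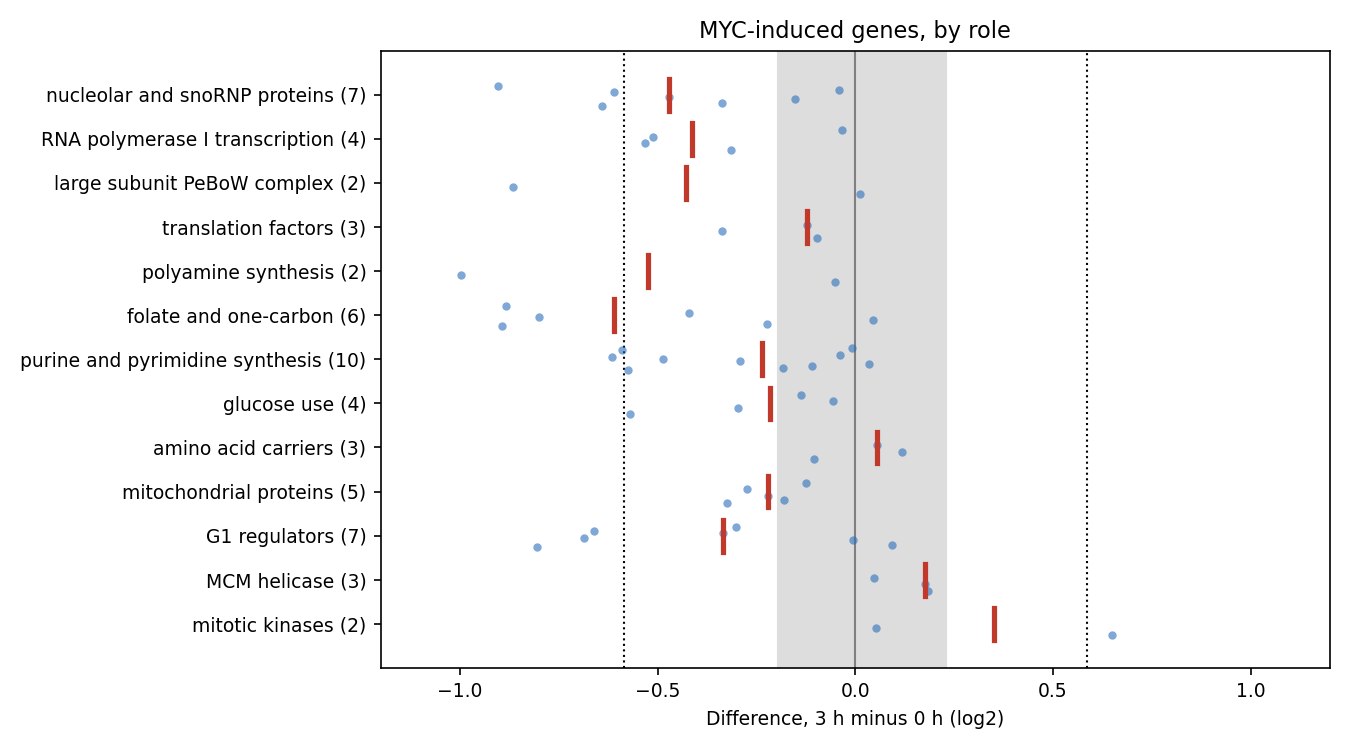
Differences (3 h minus 0 h, log2) of MYC-induced genes at or above the floor, grouped by role with the number of genes in brackets; each dot is a gene, red bars are medians and the grey band runs between the quartiles of all genes at or above the floor. Nucleolar, RNA polymerase I and folate genes lie mostly to the left of the band, and the MCM helicase genes within it.

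Taken over the 3 induced lists, 68 of 84 genes above the floor were lower (median -0.23), 14 of them by at least 1.5-fold. These shares were 81.0% and 16.7%, against 48.5% and 4.80% of all genes above the floor. Of 75 such genes with a promoter window, 18 held CACGTG (24.0%), against 12.1% of genes above the floor. The 18 had a median difference of -0.15, with 14 lower, and the 57 without the motif had one of -0.26, with 47 lower. Of the 12 genes at least 1.5-fold lower that had a window, 1 held it, E2f3. The promoters of Cdk4 and Ldha are shown as induced genes that hold the motif and differed by less than 1.5-fold.
Cdk4, chr10:127063341-127063390, plus strand: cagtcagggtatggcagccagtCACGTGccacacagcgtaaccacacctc
Ldha, chr7:46845637-46845686, plus strand: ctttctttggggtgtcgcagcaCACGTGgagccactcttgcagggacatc
The Cdk4 window held 4 copies and one of the Ldha windows 2, and the stretch shown surrounds the copy farthest from the start. Over all genes above the floor, the motif stood in the windows of 12.0% of the 367 that were at least 1.5-fold lower and of 12.0% of the 493 that were higher by that much.

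Genes listed as repressed by MYC, in part through the zinc finger protein MIZ1, leaned the other way. Of 13 at or above the floor 10 were higher, against 51.5% of all such genes, with a median of 0.19. The cell cycle inhibitor gene Cdkn1a went from 8.86 to 10.06 (2.29-fold) and the growth arrest gene Gas1 from 9.13 to 10.22 (2.13-fold). Gadd45g, a stress gene, went from 7.78 to 8.32, and Nfya, a CCAAT-box factor gene whose place in this list is less certain, was lower, from 7.61 to 7.02. The other 9 lay between -0.21 and 0.35, and with no floor the median of the 16 measured was 0.07. Zbtb17, which encodes MIZ1, was at 7.97 and 7.88. Cdkn1a is also a target of p53, so its value is not specific to MYC.

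All 8 genes listed as targets of MLX with MondoA or ChREBP were lower, none by 1.5-fold, with a median of -0.35. Of all genes above the floor, 48.5% were lower. Txnip, the glucose-responsive inhibitor of thioredoxin, went from 9.77 to 9.33 (-0.44) and Pklr, the pyruvate kinase gene of liver and red cells, from 9.74 to 9.30 (-0.44). Pfkfb3 differed by -0.37 and the fatty acid synthase gene Fasn by -0.36. Mlxip was lower as well, and Mlx was not. Hepatocytes also express Pklr and Fasn, and 16 of 18 hepatocyte markers at or above the floor were lower in the same sample (median -0.18), with the log2 of the summed level of the 19 measured at 16.93 and 16.84. Their part in these values was not tested.

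**Figure D4:**
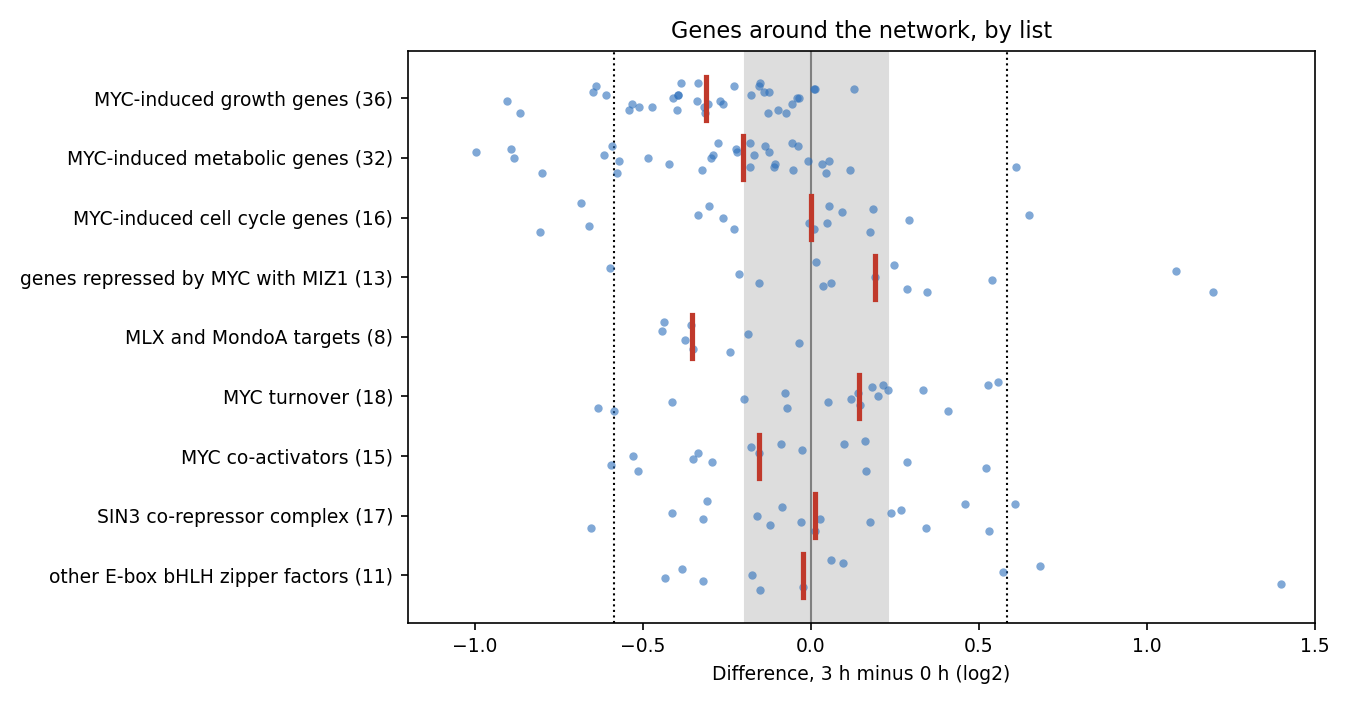
Differences (3 h minus 0 h, log2) of the genes at or above the floor in 9 lists around the network, with the number of genes in brackets; each dot is a gene, red bars are medians and the grey band runs between the quartiles of all genes at or above the floor. The growth list and the MLX and MondoA list have medians to the left of the band (-0.31 and -0.35), and dotted lines mark 1.5-fold.

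Among genes that set the stability of the MYC protein, 12 of 18 were higher and 6 lower, with a median of 0.14. The list pools genes that stabilise MYC with genes that act against it, so this count gives no direction for MYC stability. Of all genes above the floor, 51.5% were higher. The ubiquitin ligase gene Huwe1 went from 5.37, below the floor, to 5.92, and Cip2a, whose product shields MYC from the phosphatase PP2A, from 8.42 to 8.95. Usp36, a nucleolar deubiquitinase that stabilises MYC, was 1.55-fold lower (8.22 to 7.59), and Set, an inhibitor of PP2A, 1.50-fold lower (11.95 to 11.36). Set did not pass 1.5-fold after quantile normalization or removal of an intensity trend. No MYC protein was measured, so these transcripts do not give its level.

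Among co-activators of MYC, 10 of 15 were lower, against 48.5% of all genes above the floor, with a median of -0.16. The lowest were the ATPase genes Ruvbl1 (10.41 to 9.82) and Ruvbl2 (11.34 to 10.81) and their partner Actl6a (8.26 to 7.74), subunits of shared chromatin complexes. Hcfc1, a host cell factor that binds MYC, was higher (7.59 to 8.11). Only Ruvbl1 passed 1.5-fold, and it did not after quantile normalization or removal of an intensity trend.

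The SIN3 complex, through which MXD proteins and MNT repress, went both ways, with 9 of 17 genes higher, 8 lower and a median of 0.01. Of all genes above the floor, 51.5% were higher and 48.5% lower. Sin3b, a scaffold that MXD proteins bind directly, went from 6.50 to 7.10 (0.61), and Arid4a from 6.54 to 7.07 (0.53). Brms1l was higher (0.46) and Sinhcaf lower (8.26 to 7.61). Sin3b did not pass 1.5-fold after quantile normalization or removal of an intensity trend.

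Other helix-loop-helix factors that read E-boxes or related sequences had a median of -0.02 over 11 genes at or above the floor. Of these, 5 were higher and 6 lower, against 51.5% and 48.5% of all genes above the floor. Usf2, which binds CACGTG itself, went from 7.09 to 7.77 (1.60-fold), and Hif1a from 10.22 to 10.79. Tfap4, a gene induced by MYC, went from 6.32 to 5.88. Tfec, a factor of the MITF family known from macrophages, went from 4.71, below the floor, to 6.11, so it was counted through the 3 h array alone and no fold is given. Macrophage and monocyte markers moved with it: 4 of 5 at or above the floor were higher, against 51.5% of all genes above the floor. Lyz2 (7.98 to 9.80) and Csf1r (8.32 to 9.32) were among the higher ones, and Vcam1 was lower (9.22 to 8.25). The log2 of the summed level of the 17 markers measured went from 10.80 to 11.42. The other 12, among them Adgre1, Cd68 and Itgam, were below the floor on both arrays. Their part in the value of Tfec was not tested.

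Of 21 erythroid markers at or above the floor, 16 were higher and 5 lower, with a median of 0.13, against 51.5% of all genes above the floor higher. Past 1.5-fold, 6 were higher and 2 lower, against 6.94% and 4.80% of all genes above the floor. Nfe2 was at 8.96 and 10.07 and Gata1 at 9.32 and 10.15, while Icam4 (9.53 to 8.73) and Ank1 (6.89 to 6.26) were lower by over 1.5-fold. Slc4a1, at 5.47 and 8.30, was below the floor at 0 h and was counted through the 3 h array. Myc was at 9.41 and 9.68 on the same arrays, and a link between it and these markers was not tested. Among other cells, the granulocyte genes S100a9 (9.72 to 11.67), S100a8 (9.28 to 10.98) and Camp (5.11, below the floor, to 6.78) were higher, and of the hepatocyte genes Apob was lower (9.38 to 8.60) and Krt8 (11.17 to 12.12) and Krt18 (11.44 to 12.31) higher. Of the platelet genes, Itga2b was at 7.14 and 7.05, and Gp1bb (4.49 and 6.68) and Gp9 (5.63 and 6.10) were below the floor at 0 h, so their higher values at 3 h are what let them be counted. Ighm, just below the floor at 0 h and at 6.44 at 3 h, was the only lymphoid marker of 13 to reach it.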

How the data were processed

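The values analysed are log2 expression, made by the authors with RMA (background correction, quantile normalization, summary per probe set) and the affy package, per the submitters' processing notes. Tool versions: not given in the sources used here, nor is the set of arrays normalized jointly. Because RMA sets 1 distribution for all arrays, a shift of all transcripts could not be seen. Per the labels' protocols, cRNA came from 1.5 µg of total RNA.

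Of 20666 probe sets, 17918 had 1 gene in the platform annotation, and 17767 of these matched a RefSeq gene by Entrez ID. Probe sets of a gene were averaged. The floor, the fold bounds of 1.5 and 2, the 9 network lists and the markers were chosen with earlier results of these data known. Named were all members, the 3 further partners, up to 4 genes per network list and 3 per marker list with the largest difference at or above the floor, and Odc1, Srm, Ncl, Nolc1, Cad, Cdk4, Ccnd2, Ldha, Cdkn1a, Txnip and Zbtb17. Tfrc, Epor, Csf3r, Cxcr2, Adgre1, Cd68, Itgam, Icam4, Ank1, Alas2, Afp, Alb, Myod1, Utp20, Pes1, Imp4 and the role groups were named after their values were seen.

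An array has no read depth, and 1 array per time limits the precision. Alternatives were quantile normalization, removal of an intensity trend (loess, span 0.3), the brightest probe set of a gene in place of the average, leaving out suffixed probe sets, other floors (none, or 7.00, the 95th percentile over organ-specific genes expected to be silent), and the mean. Python 3.11.15, numpy 2.4.6, pandas 2.3.3, statsmodels 0.14.6 and matplotlib 3.10.9 were used, and the steps were tested on simulated data.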

Additional observations from a re-analysis of the deposited data

How the results depend on the processing

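All 10 members kept their direction under every alternative that gave a value. Each member has 1 probe set, so choosing or leaving out probe sets could only return the same value or none. Only quantile normalization and removal of an intensity trend could have changed a direction. Leaving out probe sets with a letter suffix gave no value for Myc, Mxd4, Mxi1 and Mlx and left 1 member past 1.5-fold. The planned activator median counted Mycl and was 0.27. With only members at or above the floor it was 0.44 and the gap between activators and antagonists 0.63. With a floor of 7.00, which removes Mxd3, the activator median was also 0.44 and the antagonist median -0.0682. The median of MYC-induced cell cycle genes, 0.0014 as reported, was -0.0067 without letter suffixes, -0.0285 with no floor, -0.11 as a mean and -0.23 without the _s_at and _x_at probe sets, an alternative chosen after seeing the data. With no floor the median of MIZ1-repressed genes was 0.0707 and that of other E-box factors 0.0611, and the mean of the latter was 0.12. The SIN3 median was -0.0146 after quantile normalization and -0.0045 after removal of an intensity trend. The cause of these changes was not tested. No paired analysis was possible because each time has 1 array. With 1 array per time, no alternative shows how far a repeat would vary.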
